A study of Danio rerio with 6 samples.

Results

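The miR-190 family was represented by 2 of the 230 mature miRNAs measured, dre-miR-190a and dre-miR-190b, each from 1 precursor. miR-190b was selected on its measured ratio between the libraries at 48 hours post fertilization (hpf), and miR-190a was taken along by its name. The ratio at 48 hpf is therefore given as a description, without a test, and the values at 24 hpf are the ones that did not enter the choice. Small RNA was sequenced from wild-type AB zebrafish embryos that had received 1.5 ng of an antisense morpholino in the yolk at the 1-cell stage. MO-Tbx5a embryos carried a morpholino against the start of translation of tbx5a, a T-box transcription factor of heart and pectoral fin development, and MO-Ct embryos carried a control morpholino. At 48 hpf there was 1 library of MO-Tbx5a embryos and 1 of MO-Ct embryos, and at 24 hpf there were 2 batches of each, every library being made from 50 pooled whole embryos. Nothing in these libraries measures Tbx5a protein, so the knockdown was not checked in them. Which library at 48 hpf received which morpholino is in doubt, since the sample labels and the study's own account of these libraries point to opposite assignments. The study also measured selected miRNAs of both stages by quantitative RT-PCR in repeated injection experiments. It reports that these upheld its sequencing results, save for miR-210-5p. Its list of primers holds none for miR-190b. The study's sequencing results give miR-190b as lower with MO-Tbx5a at 48 hpf, where the labels make it higher. The labels are followed here, so at 48 hpf the names MO-Tbx5a and MO-Ct stand for what a library is labelled. If the libraries were exchanged, each ratio between them would keep its size and change its sign, and the values that then result are given beside the main results.

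A miRNA is cut from a hairpin precursor and loaded into an Argonaute protein, where its first bases, the seed, pair with messenger RNAs that are then repressed. miR-190a and miR-190b belong to a vertebrate family and share their seed, while their genes stand apart in the genome. In rodent neurons, miR-190 is known to repress Neurod1, which encodes a neuronal transcription factor. In the RefSeq annotation of the GRCz12tu assembly, the precursor gene of miR-190a lies within the bounds of tln2b, which encodes a talin, a protein that links integrins to the actin cytoskeleton, and also of etfa, which encodes a subunit of the mitochondrial electron transfer flavoprotein. The precursor gene of miR-190b lies within the bounds of the long non-coding RNA LOC137487838, between the coding genes si:dkey-17m8.1 and zgc:174935. Neither has another miRNA gene within 10 kb. The strand of these genes was not used here.

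Levels are given as normalized reads, the reads of a library divided by its size factor. In a given library 1 read was worth between 0.466 and 1.87 normalized reads. Summed over the 230 mature miRNAs, the libraries held 1699876 to 3148888 assignments of reads. These sums lie above the totals of miRNA reads that the study gives, and a read can be assigned to several similar miRNAs, so they are no measure of depth. Between the batches of a group at 24 hpf, the log2 ratios of 210 miRNAs had an SD of 0.44 for MO-Tbx5a and 0.39 for MO-Ct.

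miR-190b was high in a single library. At 48 hpf its level was 490 normalized reads, from 896 reads, where the label was MO-Tbx5a, and 6.53, from 14 reads, where it was MO-Ct. At 24 hpf the MO-Tbx5a batches gave 3.74 and 5.37, and the MO-Ct batches gave 3.99 and 1.84. Each library other than the 48 hpf one labelled MO-Tbx5a thus held between 2 and 14 reads of miR-190b. At 48 hpf the exact 95% Poisson interval of the reads was 838 to 957 for MO-Tbx5a and 7.65 to 23.5 for MO-Ct. These intervals cover counting error alone, and with 1 library per morpholino no spread between embryos or batches stands behind them. By abundance it was number 98 of the 230 mature miRNAs in MO-Tbx5a embryos at 48 hpf, and number 216 to 223 in the other 5 libraries.

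**Figure D1:**
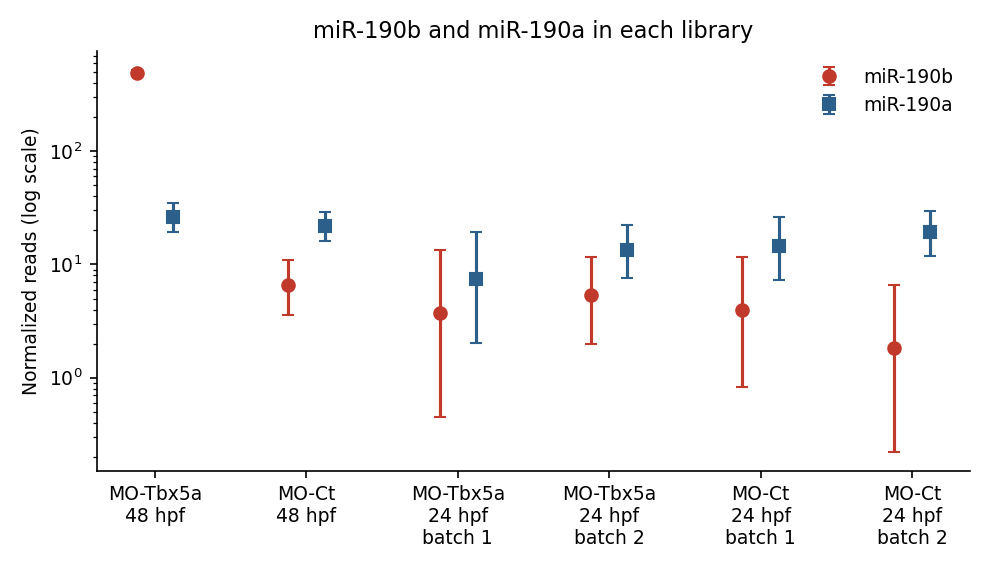
Normalized reads of miR-190b (circles) and miR-190a (squares) in each of the 6 libraries, on a log scale, with exact 95% Poisson intervals of the reads, which cover counting error alone. miR-190b stands at 490 in the 48 hpf library labelled MO-Tbx5a and at 6.53 or less in the other 5 libraries, while miR-190a lies between 7.49 and 26.3 in all 6.

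miR-190a did not show this gap. Its level at 48 hpf was 26.3 normalized reads with MO-Tbx5a, from 48 reads, against 21.9 with MO-Ct, from 47 reads. At 24 hpf the MO-Tbx5a batches gave 7.49 and 13.4, and the MO-Ct batches gave 14.6 and 19.3. The lowest of these rests on 4 reads and the highest on 21, so counting error was wide at 24 hpf. By abundance miR-190a was number 192 to 211 of the 230 mature miRNAs over the 6 libraries.

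The ratio of miR-190b to miR-190a within a library does not depend on how libraries are scaled. At 48 hpf it was 18.7 with MO-Tbx5a, against 0.298 with MO-Ct. At 24 hpf the MO-Tbx5a batches had ratios of 0.499 and 0.400, and the MO-Ct batches had ratios of 0.273 and 0.0953. miR-190a was the more abundant member in 5 of the 6 libraries, with miR-190b at 8.70% to 33.3% of their sum. In MO-Tbx5a embryos at 48 hpf, miR-190b made up 94.9% of it.

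**Figure D2:**
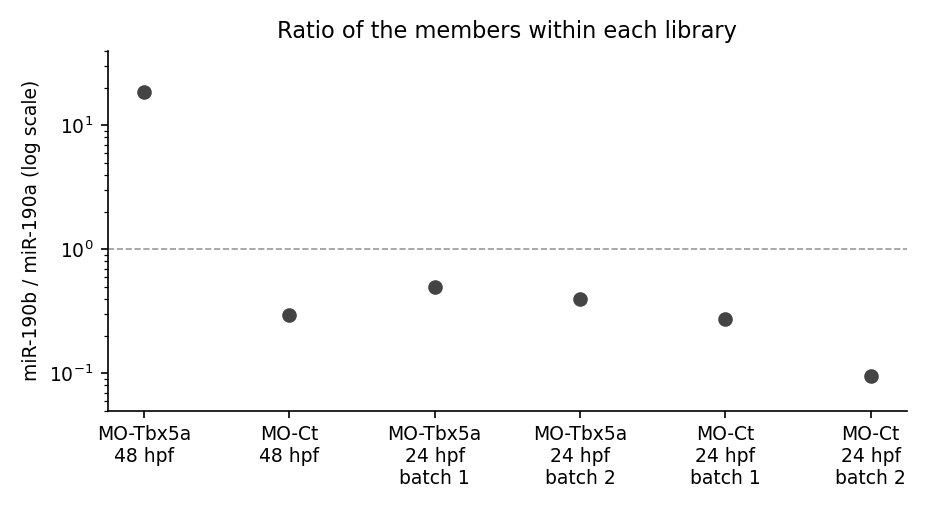
Normalized reads of miR-190b divided by those of miR-190a within each library, on a log scale, with a dashed line at equal levels. The 48 hpf library labelled MO-Tbx5a lies at 18.7 and the other 5 libraries lie between 0.0953 and 0.499.

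Ratios between the libraries at 48 hpf were taken on log2 of the level plus 2, a scale on which the change of low miRNAs is understated. The log2 ratio of MO-Tbx5a to MO-Ct was 5.85 for miR-190b. Without the added 2, its level was 75.1 times higher under the label MO-Tbx5a, with an exact 95% interval for counting error of 44.5 to 138. With the libraries exchanged, the log2 ratio of miR-190b was -5.85, the lowest of 219 miRNAs. That is the direction in which the study reports miR-190b. For miR-190a the log2 ratio was 0.24. Its level was 1.198 times higher, with an interval of 0.785 to 1.83, which holds both a lower and a higher level. Counting error alone thus did not settle the direction of miR-190a at 48 hpf, and 1 library per morpholino gives no measure of the spread between batches. Among the 219 miRNAs that reached 10 normalized reads in either library, the log2 ratio of miR-190b was number 1 and that of miR-190a number 76, around a median of -0.06.

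Next to miR-190b in this order stood 3 members of the let-7 family, miRNAs that accumulate as animal tissues mature. The log2 ratio was 3.18 for let-7d, 2.97 for let-7b and 2.59 for let-7a. In all, 8 of the 219 miRNAs, or 3.65%, had a log2 ratio of at least 2 in this direction. They were miR-190b, let-7a, let-7b, let-7c, let-7d, miR-125a, miR-9-3p and miR-9-5p. Another 4 had one of -2 or less, namely miR-34a, miR-462, miR-146a and miR-430c. With the libraries exchanged, these counts change places, with 4 at 2 or more and 8 at -2 or less. Among the miR-190 members 1 of 2 did, and since that member was chosen by this ratio, nothing is read from the count. At the other end, the lowest log2 ratio was -2.66, for miR-34a, at 83.7 normalized reads under the label MO-Tbx5a and 541 under the label MO-Ct. At 24 hpf miR-34a was higher with MO-Tbx5a, at 1566 and 1295 normalized reads, against 379 and 591 with MO-Ct. Its log2 fold change was 1.59 (limma, Benjamini-Hochberg adjusted p = 2.3e-13). This p rests on 2 libraries per morpholino, with a variance that limma shares over all miRNAs tested. The call of miR-34a also depends on the scaling, since limma called 0 miRNAs at 24 hpf with library totals. The direction of miR-34a thus differed between the stages under the labels, and would be the same at both with the libraries exchanged. For miR-30a, next to miR-34a in the order of p from limma at 24 hpf, the reverse held. It was lower with MO-Tbx5a at 24 hpf, a log2 fold change of -1.21, and at 48 hpf by the labels, a log2 ratio of -1.17. With the libraries exchanged, the direction of miR-30a would differ between the stages, as the study itself reports for this miRNA. Next in the order of p came miR-210-3p, miR-210-5p and miR-10d-5p, all lower with MO-Tbx5a at 24 hpf. At 48 hpf they were higher by the labels, at log2 ratios of 0.53, 0.10 and 0.11. Those of miR-210-5p and miR-10d-5p lay under the SDs between batches at 24 hpf, 0.44 and 0.39, so their directions at 48 hpf are not settled. Among miRNAs further down the order of p, some changed direction by the labels, as miR-181c, and some did not, as miR-92b. How many did either was not counted. Which assignment is right was not tested here. The study's sequencing results give miR-34a and miR-21 as higher with MO-Tbx5a at 48 hpf, the direction that the exchange would give. By the labels the log2 ratio of miR-21 was -1.57. The study's primers for quantitative RT-PCR include miR-34a and miR-21. How far batches differ at 48 hpf was not measured.

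**Figure D3:**
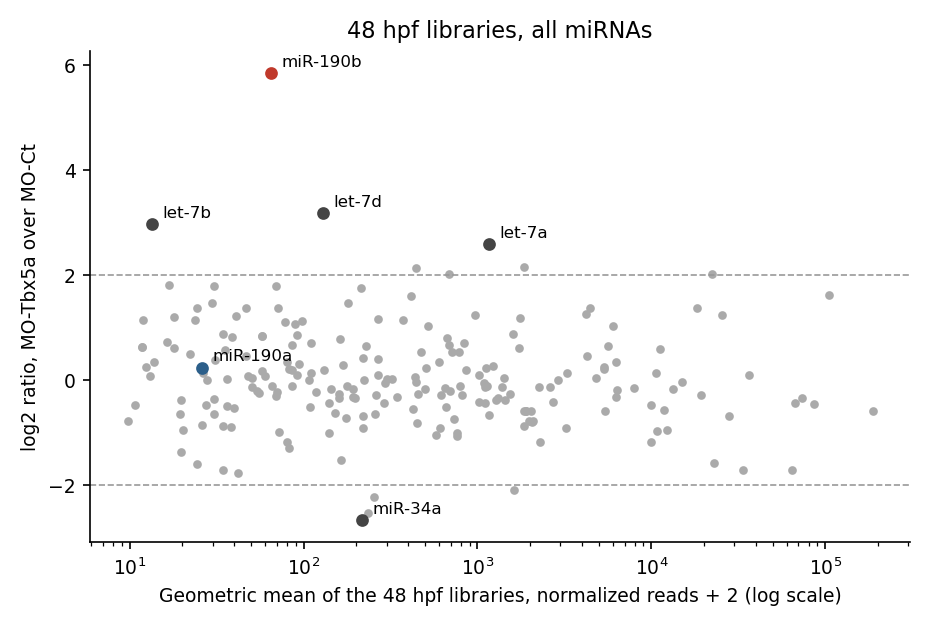
Log2 ratio of MO-Tbx5a over MO-Ct at 48 hpf for 219 miRNAs, with the libraries named as labelled, against the geometric mean of both levels on a log scale, with dashed lines at log2 ratios of 2 and -2. miR-190b lies at 5.85, above let-7d at 3.18, and miR-190a at 0.24 lies among most other miRNAs.

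At 24 hpf the members could be compared over 2 batches per morpholino. miR-190a averaged 10.5 ± 4.21 normalized reads with MO-Tbx5a and 16.97 ± 3.30 with MO-Ct (SD, n = 2 each). Both MO-Tbx5a batches lay below both MO-Ct batches, as they did for 29.5% of the 210 miRNAs tested. By limma with Benjamini-Hochberg adjustment, the log2 fold change was -0.64, with a standard error of 0.53, a 95% interval of -1.69 to 0.41 and an adjusted p of 0.550. miR-190a was thus not called, where 16 of 210 miRNAs, or 7.62%, were. An exact two-sided permutation test of miR-190a gave p = 0.333, the smallest that 2 libraries against 2 allow. Leaving out MO-Tbx5a batch 1 gave miR-190a a log2 fold change of -0.29, and leaving out batch 2 of the same group gave -0.99.

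miR-190b averaged 4.56 ± 1.15 normalized reads with MO-Tbx5a and 2.92 ± 1.52 with MO-Ct at 24 hpf (SD, n = 2 each). The groups overlapped, since MO-Tbx5a batch 1 lay below MO-Ct batch 1. These levels come from 8 reads for MO-Tbx5a and 5 reads for MO-Ct. All 4 values were under 10 normalized reads, so miR-190b did not reach the minimum for the test. Its mean log2 difference was 0.44, and an exact two-sided permutation test gave p = 0.667. With the minimum removed, the adjusted p of miR-190b was 0.740 by limma. No difference between the morpholinos was detectable for miR-190b at 24 hpf at this depth.

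The libraries at 48 hpf were next set against those at 24 hpf within each morpholino, as a description, since the rule of choice had used the libraries at 48 hpf. In MO-Tbx5a embryos miR-190b stood at 490 normalized reads at 48 hpf and at a mean of 4.56 at 24 hpf. Its log2 ratio of stages, 6.24, was the highest of 225 miRNAs. In MO-Ct embryos it stood at 6.53 at 48 hpf and at a mean of 2.92 at 24 hpf, a log2 ratio of 0.83 and number 41 of the 225. The level of miR-190b in MO-Ct embryos at 48 hpf thus lay near those at 24 hpf, and its counting interval of 3.57 to 10.95 normalized reads overlapped those of all 4 libraries at 24 hpf. For miR-190a the log2 ratio of stages was 1.22 with MO-Tbx5a and 0.35 with MO-Ct. With the libraries at 48 hpf exchanged, miR-190b had a ratio of stages of 0.39 in MO-Tbx5a embryos, number 67 of the 225, and of 6.68 in MO-Ct embryos, number 1. The exchange gave miR-190a 0.98 with MO-Tbx5a and 0.59 with MO-Ct. The ratios of stages also depend on the scaling. Their median over the 225 miRNAs was -0.43 for MO-Tbx5a and -0.16 for MO-Ct with the deposited size factors, and 1.07 and 1.08 with library totals. Relative to that median, miR-190b stood at 6.67 in MO-Tbx5a and 0.99 in MO-Ct embryos with the deposited size factors, and at 6.55 and 0.74 with library totals.

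The second highest ratio of stages in MO-Tbx5a embryos belonged to let-7d. Like miR-190b, let-7d was close to absent at 24 hpf, where the MO-Tbx5a batches gave 3.74 and 3.58 normalized reads and the MO-Ct batches gave 5.32 and 1.84. At 48 hpf let-7d stood at 386 in MO-Tbx5a and 40.8 in MO-Ct embryos. Unlike miR-190b, let-7d therefore lay far above its levels at 24 hpf with both morpholinos, at log2 ratios of stages of 6.10 for MO-Tbx5a and 3.01 for MO-Ct. In all, 13 mature miRNAs had under 10 normalized reads in each library at 24 hpf. Of these, 8 reached 10 in MO-Tbx5a embryos at 48 hpf, and 2 of the 8, let-7d and miR-122, also reached it in MO-Ct embryos, by the labels. With the libraries exchanged, 2 reached it in MO-Tbx5a and 8 in MO-Ct embryos. These counts depend on the cut at 10, since by the labels miR-460-5p stood at 11.5 in MO-Tbx5a and 9.33 in MO-Ct embryos. The share of all miRNAs that reached 10 in each library was not counted, so nothing is read from them. miR-122 is the abundant miRNA of the liver. miR-190b had the highest level of the 13 in MO-Tbx5a embryos at 48 hpf.

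**Figure D4:**
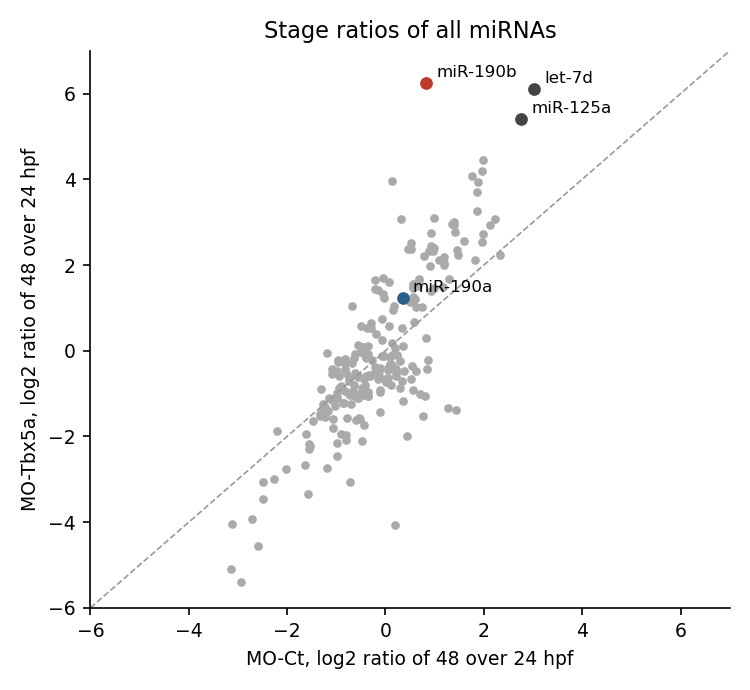
Log2 ratio of 48 over 24 hpf for 225 miRNAs, in MO-Tbx5a embryos (vertical axis) against MO-Ct embryos (horizontal axis), the 48 hpf libraries named as labelled, with a dashed line at equal ratios. miR-190b lies at 6.24 and 0.83, let-7d at 6.10 and 3.01, and miR-190a at 1.22 and 0.35.

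How far a miRNA stood out in its highest library was compared over the 225 miRNAs that reached 10 normalized reads in any library, a view chosen after the values were seen. For miR-190b the highest library was 75.1 times the next one. Both were the libraries at 48 hpf, so this repeats the ratio that chose miR-190b and adds no support to it. With 2 normalized reads added to each level, miR-190b stood first at 57.7 times, followed by let-7d at 9.08 times and let-7b at 6.62 times. For each of the first 10 miRNAs in this order, the highest library was the 48 hpf one labelled MO-Tbx5a, which the exchange would name MO-Ct. The share of all 225 miRNAs that were highest in this library was not counted, so nothing is read from the 10.

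The 5 miRNAs whose levels followed those of miR-190b most closely over the 6 libraries were let-7a, miR-181b, miR-135c, miR-181a-5p and miR-124, with Pearson correlations of 0.985, 0.982, 0.977, 0.964 and 0.958 of their log2 levels. These are descriptions over 6 points, and all 5 share with miR-190b their highest level in MO-Tbx5a embryos at 48 hpf. Their gaps at 48 hpf were far smaller than that of miR-190b. let-7a stood at 2845 normalized reads in MO-Tbx5a and 472 in MO-Ct embryos. miR-124, a miRNA of differentiated neurons, stood at 721 in MO-Tbx5a and 236 in MO-Ct embryos, a log2 ratio of 1.60. Over the 4 libraries at 24 hpf alone, 0 of these 5 were among the 5 closest to miR-190b. miR-190a correlated with miR-190b at 0.565 and was number 65 of 224.

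Since miR-190 is studied in neurons, all forms of the nervous system miRNAs miR-9, miR-124, miR-128, miR-129, miR-132, miR-137, miR-138, miR-153, miR-212, miR-218 and miR-219 were looked at beside it, together 16 mature miRNAs. At 48 hpf, 14 of the 16 had a higher level under the label MO-Tbx5a than under MO-Ct, as did 105 of all 219 miRNAs. With the libraries exchanged, 2 of the 16 were higher in MO-Tbx5a embryos. The median log2 ratio was 0.89 for the 16 and -0.06 for all. The values ran between 2.02 for miR-9-3p, from a gene family of neural progenitors, and -0.66 for miR-153b, so all 16 lay below the 5.85 of miR-190b. At 24 hpf, limma called 0 of the 14 that could be tested, where it called 7 of all 210 higher and 9 lower. Of the 14, 3 had an unadjusted p under 0.05 by limma, all 3 lower with MO-Tbx5a, where 44 of all 210 had one in either direction. The 44 were not split by direction, so nothing is read from all 3 being lower. In the direction of the fold change alone, 2 of the 14 were higher, while the median of all 210 lay close to no change. The 14 were not tested as a set. The lowest adjusted p was 0.0642, for miR-153c. The median log2 fold change was -0.25 for the 14 and -0.01 for all 210. In whole embryos, a larger share of a tissue and more of a miRNA per cell cannot be told apart.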

How the data were processed

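Small RNA libraries of whole zebrafish embryos were grouped by their sample labels, also at 48 hpf, where the assignment is in doubt. The authors demultiplexed with CASAVA, trimmed with Cutadapt, kept reads of 17 to 38 bases, mapped to miRBase release 20 precursors with miRExpress at 95% identity, and summed the reads of each miRNA. The deposited values are a signal, these sums divided by the authors by DESeq size factors. Near-identical precursors can share reads under this mapping.

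Levels were averaged over the precursors of each mature miRNA. In each library at least 99.6% of values above 0 came within 0.1 reads of whole multiples of a step, which was taken as 1 read for counting intervals. The 24 hpf libraries were fitted by limma 3.58.1 (R 4.3.3) with a variance trend on log2(level + 2). The fit covered the 210 miRNAs that reached 10 in 2 or more of the 4 libraries, two-sided, with Benjamini-Hochberg adjustment over all of them. A miRNA was called at an adjusted p under 0.05. The fit was checked on data drawn with known changes. Exact permutation tests used scipy 1.17.1 (Python 3.11.15, numpy 2.4.6, pandas 2.3.3, matplotlib 3.10.9).

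The miRNAs named are all miR-190 members, the 3 nearest in the order of ratios at 48 hpf, and the 5 most correlated over the libraries. Others were singled out by a small count, an extreme or the study's own report, after the values were seen. Members, lists and tests were chosen with earlier results of these data known. The labels do not say whether batches came from separate parents or days, so p-values measure only the spread between these libraries. Those of limma share this spread over all miRNAs tested. Other scalings, filters, pseudocounts and fits were tried, and each 24 hpf library was left out in turn. Mature sequences of the members were not analysed here.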

Additional observations from a re-analysis of the deposited data

Results flagged for a closer look

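miR-190a lay lower in both MO-Tbx5a libraries than in both MO-Ct libraries at 24 hpf, a log2 fold change of -0.64, and higher in MO-Tbx5a than in MO-Ct embryos at 48 hpf by the labels, a log2 ratio of 0.24. The directions at the 2 stages were thus opposite by the labels. At 48 hpf, however, the libraries held 48 and 47 reads of miR-190a. The counting interval of their plain ratio, 0.785 to 1.83, holds both directions. With 1 library per morpholino, the values at 48 hpf must fall to some side. At 24 hpf, 29.5% of the 210 miRNAs tested had both MO-Tbx5a libraries below both MO-Ct libraries. The difference between the stages was not tested, the value at 24 hpf did not pass its test, and that at 48 hpf had none. The assignment of the libraries at 48 hpf is in doubt. With them exchanged, the log2 ratio at 48 hpf was -0.24 and miR-190a lay lower in MO-Tbx5a embryos at both stages.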

How the results depend on the processing

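miR-190b kept number 1 of the ratios at 48 hpf under all 6 alternatives of processing. Its log2 ratio there was 4.92 with a pseudocount of 10 and 5.89 to 6.23 under the other 4 that change its value, and dropping the minimum level changes the order alone. In MO-Tbx5a embryos its log2 ratio of 48 to 24 hpf, 6.24, was 6.77 without a pseudocount, 6.62 with 0.5, 5.11 with 10, 7.61 with library totals and 6.61 with median-ratio size factors, and 6.06 to 6.42 with each library at 24 hpf left out. In MO-Ct embryos it was 0.36 with a pseudocount of 10 and 1.82 with library totals against 0.83, and 0.51 to 1.15 with each library left out. At 24 hpf, miR-190a kept its sign without a call in 14 alternatives (log2 fold change -0.99 to -0.29, adjusted p 0.335 to 0.967 from limma), and miR-190b kept its sign in 10 (0.12 to 0.76). Over all miRNAs limma called 16 at 24 hpf, but 0 with library totals (38 had an unadjusted p under 0.05), 6 with median-ratio size factors, 1 without the variance trend, and 0 to 16 with each library left out. It was 0 without MO-Ct batch 1 and 0 without MO-Ct batch 2, with 25 and 24 at an unadjusted p under 0.05, and 5 without MO-Tbx5a batch 1. With the replicate block 39 were called, and miR-190a was not (adjusted p = 0.501 from limma). The labels do not say what equal batch numbers share, and the log2 ratios between batches correlated at 0.28 over 210 miRNAs of both groups. Of the 5 miRNAs most like miR-190b, 4 stayed among the 5 with a pseudocount of 10, 2 with library totals, 1 by Spearman correlation and 0 over the libraries at 24 hpf alone. Library totals moved the median log2 ratio at 48 hpf by 0.17. The count of 14 nervous system miRNAs was the same with library totals and with median-ratio size factors, both added after the data were seen. With the libraries at 48 hpf exchanged, added after the data were seen, miR-190b had a log2 ratio of -5.85 at 48 hpf, number 219 of 219, and ratios of 48 to 24 hpf of 0.39 in MO-Tbx5a and 6.68 in MO-Ct embryos, and 2 of the 16 nervous system miRNAs were higher. The planned tests for counts were not run, and the causes of these changes were not tested. Depth limits both members at 24 hpf, where they rest on 2 to 21 reads per library.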
